A study of Mus musculus with 4 samples.

Results

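The constitutive proteasome subunit genes were the 47 genes, of 32285 in the deposited matrices, whose symbols begin with Psma, Psmb, Psmc, Psmd, Psme, Psmf or Psmg followed by a number. The pattern took 50 symbols, and the 3 inducible catalytic subunits Psmb8, Psmb9 and Psmb10 were then left out. The members were the 14 genes of the core (Psma1 to Psma7 of the alpha ring and Psmb1 to Psmb7 of the beta ring), 17 genes of the cap, the assembly chaperones of the cap base (Psmd5, Psmd9, Psmd10) and of the core (Psmg1 to Psmg4), the activator genes Psme1 to Psme4, the inhibitor gene Psmf1, the testis form Psma8 and the thymus form Psmb11. Psmc3ip, which encodes a meiotic recombination cofactor, and Psme2b, a retrocopy of Psme2, were taken by name only and are given apart. All 47 are annotated as protein coding, on 16 chromosomes.

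Single-cell RNA-seq was performed on bone marrow (BM) and spleen of C57BL/6J mice, 6 to 8 weeks old, that carried transplanted MA9 leukaemia cells, which are driven by the MLL-AF9 fusion. The leukaemia cells held a doxycycline-inducible hairpin against Prmt9 (shPrmt9), which encodes an arginine methyltransferase, or a control hairpin (Ctrl), and both groups drank doxycycline for 7 days. The hairpin was carried by the transplanted cells, so the T, B, NK and erythroid cells of the recipient did not hold it. Each of the 4 groups, Ctrl and shPrmt9 in each tissue, was 1 library, and the study describes marrow and spleen as taken from a representative mouse of each condition, so no value below has a replicate and no test between conditions was possible. Intervals below are 95% intervals that cover counting error only.

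The proteasome degrades proteins that carry ubiquitin chains. Its core is a barrel of alpha and beta rings, with the protease sites on the beta subunits Psmb5, Psmb6 and Psmb7. The cap binds the ubiquitin chain, removes it and threads the protein into the barrel. Interferon replaces the 3 catalytic subunits with inducible forms and raises Psme1 and Psme2, whose products form an alternative ring that opens the barrel for peptide production.

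The matrices held 8648 to 11315 barcodes, of which 8065 to 11174 were kept, with median depths of 6668 to 10548 UMIs (unique transcript molecules) per cell. Cells were assigned to cell types by marker genes, hence names such as T cell-like, and 13.3 to 14.4% of kept cells in 3 libraries but 36.2% in Spleen-shPrmt9 had no type. Library pairs shared 15 to 35 barcodes. In the MA9 leukaemia-like cells of marrow Prmt9 was at 11.2 CPM (10.6 to 11.9) in Ctrl and 6.15 CPM (5.66 to 6.67) in shPrmt9, where CPM is UMIs of a gene per 1000000 UMIs of that cell type and library. A lower level was not particular to cells with the hairpin. T cell-like cells of spleen had 15.5 CPM (13.8 to 17.3) in Ctrl and 9.79 CPM (8.55 to 11.2) in shPrmt9. Those of marrow had 11.9 CPM (7.61 to 17.7) in Ctrl and 15.6 CPM (9.41 to 24.4) in shPrmt9. NK cell-like cells of spleen had 9.03 CPM (5.06 to 14.9) in Ctrl and 14.6 CPM (10.0 to 20.5) in shPrmt9. For these marrow T cell-like and spleen NK cell-like cells the Ctrl and shPrmt9 intervals overlap, so no direction is drawn from them. Pairs of CPM values below are in the order Ctrl, shPrmt9, and ratios are shPrmt9 over Ctrl. The 4 Y-linked genes examined summed to 0.00584 and 0.0107 CPM in marrow and to 211 and 150.0 CPM in spleen. By these genes the marrow and spleen of a condition differ in sex. Tissue thus cannot be told apart from animal and sex wherever marrow and spleen are set side by side. Both marrow libraries enter all 9 marrow comparisons and both spleen libraries all 4 spleen comparisons.

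The level of the core and cap differed far more between cell types than between conditions. Summed over the 31 core and cap genes, the highest levels in BM-Ctrl were 6433 CPM in MA9 leukaemia-like and 6218 CPM in neutrophil progenitor-like cells. Next came NK cell-like cells at 5567, plasmacytoid dendritic cell-like at 5529.7 and classical monocyte-like at 5367 CPM. The B cell-like (4691 CPM), basophil or mast-like (4593 CPM) and T cell-like cells (4361 CPM) formed the middle of the order. The neutrophil series was lower, with 2809 CPM in immature granule-forming and 2126 CPM in mature neutrophil-like cells, and erythroid-like cells were lowest at 729 CPM. From the progenitor-like to the immature and the mature neutrophil-like cells the sum was thus lower at each step. The 6 MA9 markers summed to 128 CPM in the progenitor-like cells, against 21.3 CPM in immature and 9.20 CPM in mature neutrophil-like cells. In MA9 leukaemia-like cells they summed to 481 CPM. Leukaemia cells among the progenitor-like cells can therefore not be told apart. Spleen-Ctrl gave the same order for the types it shared with marrow, with 6195 CPM in NK cell-like, 4441 in T cell-like, 4340.0 in B cell-like and 772 in erythroid-like cells, except that the T and B cell-like levels, which lie close in both tissues, changed places. Plasma cell-like cells, which secrete antibody and were frequent enough only in Spleen-shPrmt9, were at 6747 CPM, near the leukaemic level. The UMIs taken by a cell's most abundant products enter these levels. With globin, mitochondrial, ribosomal protein, granule and immunoglobulin genes left out of the denominator, the erythroid-like sums were 2612 CPM in BM-Ctrl and 4236 CPM in Spleen-Ctrl, and the mature neutrophil-like sum in BM-Ctrl was 3127 CPM. On that scale the 2 erythroid-like and the mature neutrophil-like sums were still the 3 lowest in the Ctrl libraries.

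Psme1 and Psme2 followed another order. Their sum was highest in T cell-like cells of spleen (1434 CPM in Ctrl and 1836 CPM in shPrmt9) and reached 1069 CPM in plasmacytoid dendritic cell-like cells of BM-Ctrl. MA9 leukaemia-like cells of marrow, highest for the core and cap, had 429 CPM in Ctrl, below the 711 CPM of B cell-like and 909.8 CPM of T cell-like cells in the same library. The core chaperones followed the core instead, with 272 CPM in MA9 leukaemia-like, 268 CPM in neutrophil progenitor-like and 23.1 CPM in mature neutrophil-like cells of BM-Ctrl. The 26 and 96 MA9 leukaemia-like cells of spleen were not compared between conditions, since a comparison needed at least 50 cells in both libraries. In Spleen-shPrmt9 progenitor markers also outnumbered their own among the leading genes. Their core and cap sums were 7842 CPM in Ctrl and 6801 CPM in shPrmt9.

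**Figure D1:**
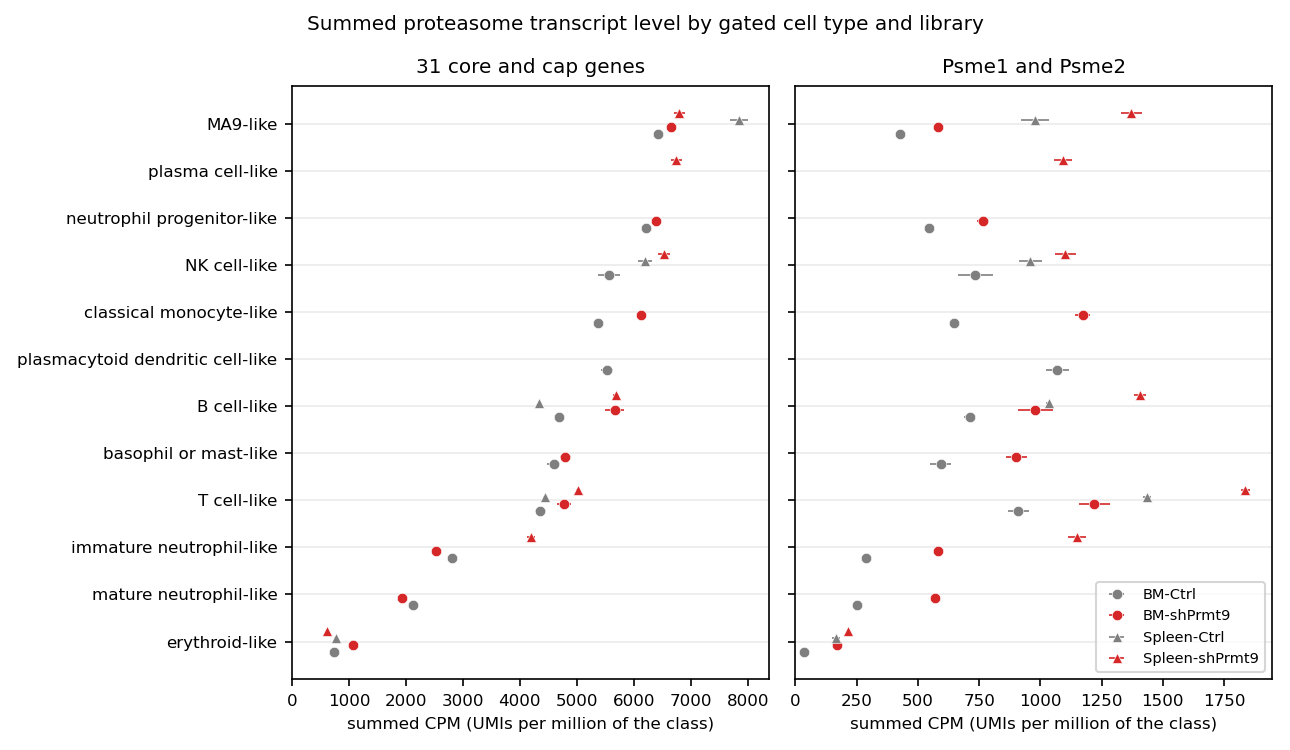
Summed level (CPM, linear axis) of the 31 core and cap genes and of Psme1 with Psme2 in each cell type of each of the 4 libraries, with 1 point per library and bars for counting error. The core and cap sum was 6433 CPM in MA9 leukaemia-like and 729 CPM in erythroid-like cells of BM-Ctrl.

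Between conditions, the summed core and cap level was higher in shPrmt9 in 10 of 13 comparisons of a cell type in a tissue and lower in 3, the immature and mature neutrophil-like cells of marrow and the erythroid-like cells of spleen. In those 3 the sign depended on the scale, since under both scalings over all genes that were tried (TMM and median-of-ratios) the sum was higher in shPrmt9 in 13 of 13. The median log2 ratio over all genes was itself -0.24 in immature and -0.28 in mature neutrophil-like cells, 0.26 in erythroid-like cells of marrow, -0.17 in B cell-like cells of spleen and -0.67 in erythroid-like cells of spleen, and within 0.1 of 0 elsewhere. Relative to it, the median core and cap gene was above all genes in 12 of 13 comparisons, by 0.07 to 0.55 on the log2 scale, and lay at -0.02 relative to all genes in NK cell-like cells of spleen. Single genes called past 1.5-fold higher were at most 3 of 31 in any comparison but erythroid-like marrow, where 12 of 30 were, beside 27.7% of all genes. Those called lower were at most 2 of 31 except in erythroid-like spleen cells, where 9 of 31 were, beside 55.7% of all genes.

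**Figure D2:**
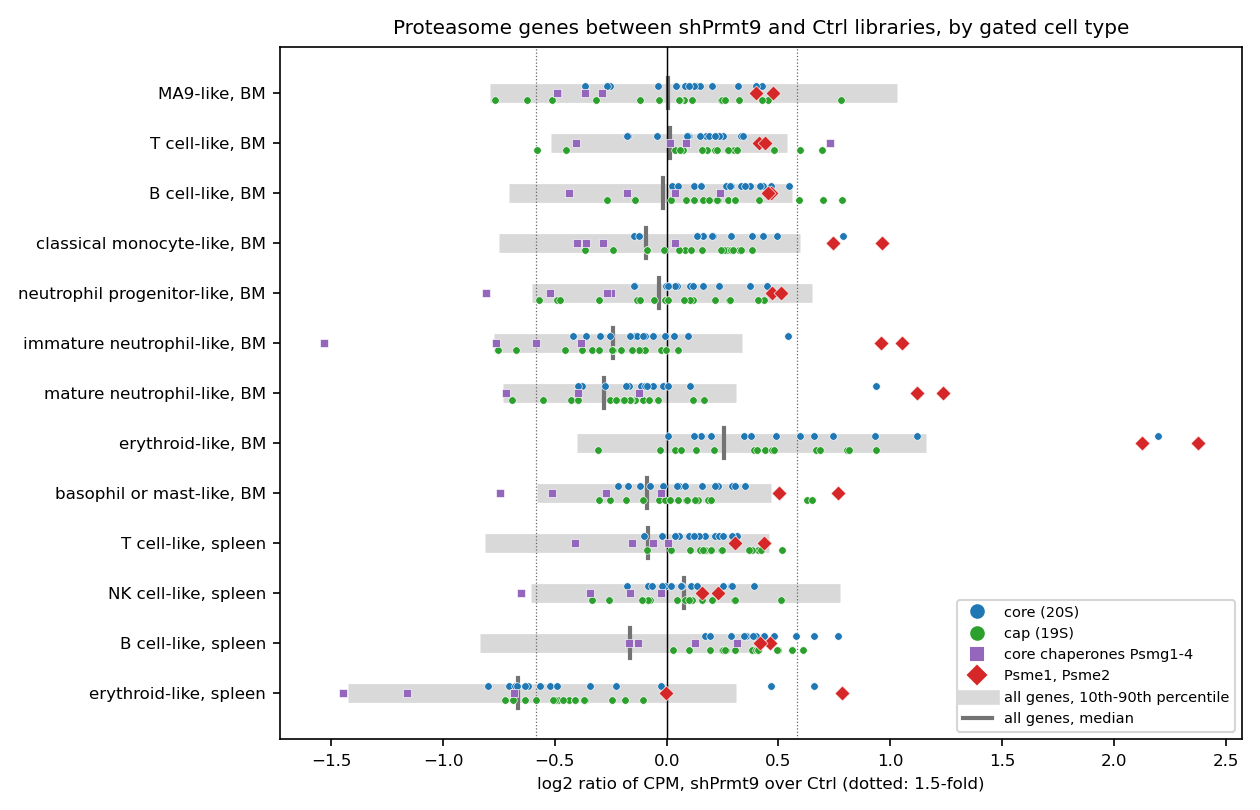
Ratio of shPrmt9 to Ctrl (log2 axis) in the 9 cell types of marrow and 4 of spleen, with each core and cap gene as a point, Psme1 and Psme2 apart, and the median and the 10th to 90th percentile of all genes in grey. Psme1 and Psme2 lie above the median of all genes in all 13; in neutrophil-like cells and erythroid-like spleen cells the core and cap median is below a ratio of 1 on this scale but above it under TMM and median-of-ratios scaling.

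In MA9 leukaemia-like cells of marrow (1499 and 1638 cells) the core and cap as a whole barely differed, while single subunits went both ways. The sum was 6433 CPM in Ctrl and 6655 CPM in shPrmt9, a ratio of 1.03 (1.03 to 1.04), and the direction turned without the cells of highest UMI count, where the median gene was at a log2 ratio of -0.09 against 0.10 with them. The core summed to 4240.3 CPM in Ctrl and 4479 CPM in shPrmt9, a ratio of 1.06 (1.05 to 1.06), and the cap to 2193 CPM in Ctrl and 2176 CPM in shPrmt9, a ratio of 0.992 (0.986 to 0.999). Of the 31 genes 21 were above a ratio of 1, and 1 was called higher and 2 lower, beside 19.2% of all genes called higher and 15.5% called lower. The called genes were all in the cap. Psmd13, a lid subunit, was at 78.5 CPM in Ctrl and 135 CPM in shPrmt9, a ratio of 1.72 (1.67 to 1.77). Psmd1, the large scaffold of the base, was at 85.5 CPM in Ctrl and 117 CPM in shPrmt9, a ratio of 1.37 (1.33 to 1.41). Psmc2 and Psmc6, 2 of the 6 ATPases that unfold substrates, went the other way. Psmc2 was at 192 CPM in Ctrl and 112 CPM in shPrmt9, a ratio of 0.587 (0.573 to 0.601), and Psmc6 was at 198 CPM in Ctrl and 128 CPM in shPrmt9, a ratio of 0.649 (0.634 to 0.664). Psmd14, the lid enzyme that cuts off the ubiquitin chain, was at 160.2 CPM in Ctrl and 112 CPM in shPrmt9, a ratio of 0.701 (0.684 to 0.719). Of the catalytic subunits, Psmb6 was at 166 and 219 CPM, ratio 1.32 and Psmb5 at 454 and 565 CPM, ratio 1.25, while Psmb7 was at 134 and 112 CPM, ratio 0.832. Thus 2 catalytic subunits were higher and the other lower in shPrmt9.

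Markers of other cells moved with these leukaemic values. The 8 mature neutrophil markers, all detected in both libraries, went from 5656 to 21518 CPM, the 6 MA9 markers from 481 to 657 CPM and the 13 proliferation genes from 1132 to 1758 CPM, and their part in the result was not tested. These cells were deep, with a median of 59871 UMIs in Ctrl, and the alternative that left out the cells of highest UMI count removed 624 of 1499 and 887 of 1638 of them.

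B cell-like cells had the highest core and cap ratio of the spleen, and the same direction in marrow. In spleen (5227 and 616 cells) the sum was 4340.0 CPM in Ctrl and 5686 CPM in shPrmt9, a ratio of 1.31 (1.30 to 1.32), and 31 of 31 genes were above 1, with 3 called higher beside 6.97% of all genes and 0 called lower beside 17.8%. The 3 were Psma5 of the alpha ring, at 139 CPM in Ctrl and 237 CPM in shPrmt9, a ratio of 1.70 (1.62 to 1.79), Psmb2 of the beta ring, at 128 and 202 CPM, ratio 1.58, and Psmd14, at 61.8 and 94.4 CPM, ratio 1.53. Psma7 followed, at 295 and 440.4 CPM, ratio 1.49. The whole complex was involved, with sum ratios of 1.39 (1.37 to 1.42) for the alpha ring, 1.25 (1.23 to 1.27) for the beta ring and 1.28 (1.26 to 1.30) for the cap. In marrow the shPrmt9 library held only 82 B cell-like cells against 950 in Ctrl. There the sum was 4691 CPM in Ctrl and 5663 CPM in shPrmt9, a ratio of 1.21 (1.17 to 1.25), and 29 of 31 genes were above 1, with 3 called higher beside 9.18% of all genes and 0 called lower beside 13.2%. The 3 called were Psmd14 at 86.3 CPM in Ctrl and 149 CPM in shPrmt9, a ratio of 1.72 (1.39 to 2.13), the lid subunit Psmd6 at 69.4 and 113 CPM, ratio 1.63, and the ATPase Psmc3 at 127 and 191 CPM, ratio 1.51. Psma4 was at 167 and 244 CPM, ratio 1.46. Psmd14 was thus called higher in B cell-like cells of both tissues. In spleen the 13 proliferation genes went from 196 to 419 CPM and the 9 erythroid markers from 393 to 2253 CPM. In marrow the proliferation genes went from 595 to 1141 CPM and the 8 mature neutrophil markers from 3822 to 13950.4 CPM. The part of these lists in the B cell values was not tested.

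T cell-like cells had a smaller difference in the same direction in both tissues. In spleen (2087 and 2229 cells) the sum was 4441 CPM in Ctrl and 5018 CPM in shPrmt9, a ratio of 1.13 (1.12 to 1.14), 28 of 31 genes were above 1 and 0 were called either way, beside 7.37% of all genes called higher and 16.5% lower. The cap sum had a ratio of 1.18 (1.16 to 1.20) and the core 1.10 (1.09 to 1.12). The ATPases led, with Psmc5 at 90.6 CPM in Ctrl and 129.6 CPM in shPrmt9, a ratio of 1.43 (1.35 to 1.52), Psmc6 at 106 and 142 CPM, ratio 1.34, and Psmc2 at 91.2 and 121 CPM, ratio 1.33. Psmb1 of the beta ring was the core gene lowest in ratio, at 361 and 337 CPM, ratio 0.933. In marrow (271 and 144 cells) the sum was 4361 CPM in Ctrl and 4772 CPM in shPrmt9, a ratio of 1.09 (1.06 to 1.13), with 26 of 31 genes above 1 and 2 called higher beside 8.58% of all genes, and 0 called lower beside 7.84%. The 2 were the lid subunits Psmd6 at 54.9 CPM in Ctrl and 88.8 CPM in shPrmt9, a ratio of 1.62 (1.23 to 2.13) and Psmd8 at 136 and 206 CPM, ratio 1.51. Psmd14 was at 67.8 and 94.6 CPM, ratio 1.39, and the lid subunit Psmd3 and the ATPase Psmc1 were lower, at 73.8 and 49.4 CPM, ratio 0.669, and 70.8 and 51.8 CPM, ratio 0.732. In the T cell-like cells of spleen the 9 erythroid markers went from 288 to 3202 CPM, the 8 B cell markers from 1004 to 270.1 CPM and the proliferation genes from 286 to 189.9 CPM; their part was not tested.

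NK cell-like cells of spleen (97 and 179 cells) were the one comparison whose core and cap median was not above that of all genes. The sum was 6195 CPM in Ctrl and 6528 CPM in shPrmt9, a ratio of 1.05 (1.03 to 1.08), 18 of 31 genes were above 1, and 0 were called either way beside 16.6% of all genes called higher and 10.7% lower. With the abundant products named above left out of the denominator, the median gene turned to a log2 ratio of -0.02. Psmc6 was highest in ratio, at 130.1 CPM in Ctrl and 186 CPM in shPrmt9, a ratio of 1.43 (1.21 to 1.69). Next were Psmb7 at 94.6 and 124 CPM, ratio 1.31, Psmd2 of the base at 111 and 137 CPM, ratio 1.24, and Psmc3 at 151 and 186 CPM, ratio 1.23. The lowest members whose interval left out 1 were Psme3, Psmg2, Psmd9 and Psmg4, outside core and cap. In these cells the erythroid markers went from 243 to 28034 CPM, with Car1 and Klf1 at 0 in one library or the other, and the mature neutrophil markers from 37.3 to 3459 CPM, with an untested part in these values.

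Classical monocyte-like cells of marrow (600 and 226 cells) had a core and cap sum of 5367 CPM in Ctrl and 6131 CPM in shPrmt9, a ratio of 1.14 (1.13 to 1.16). The ratio was above 1 for 24 of 31 genes, with 1 called higher beside 10.4% of all genes and 0 called lower beside 14.7%. The called gene was the catalytic Psmb6, at 163 CPM in Ctrl and 282 CPM in shPrmt9, a ratio of 1.73 (1.61 to 1.86), and Psmb5 was at 252 and 355 CPM, ratio 1.41, while Psmc6 was at 147 and 114 CPM, ratio 0.776. The neutrophil progenitor-like cells (233 and 304 cells) hardly differed in sum, at 6218 CPM in Ctrl and 6393 CPM in shPrmt9, a ratio of 1.03 (1.01 to 1.04), with 19 of 31 genes above 1, none of 31 called higher beside 11.9% of all genes and none called lower beside 10.6%. Their sign also turned without the cells of highest UMI count, to a median log2 ratio of -0.02. Psmb6 was again among the highest, at 168 CPM in Ctrl and 229 CPM in shPrmt9, a ratio of 1.36 (1.26 to 1.47), with Psmd6 at 98.9 and 134 CPM, ratio 1.35, and Psmd14 was lowest of the cap, at 147 and 98.6 CPM, ratio 0.673. The median depth of these progenitor-like cells was 38632 UMIs in Ctrl and 5579.5 in shPrmt9, Prg2 and Prg3, which encode eosinophil granule proteins, were among their leading genes, and their mature neutrophil markers went from 11074 to 34819.9 CPM. The same markers went from 8588 to 15419 CPM in the monocyte-like cells, whose own 5 monocyte markers went from 3578 to 1889 CPM, proliferation genes from 1416 to 658 CPM and erythroid markers from 1993 to 798 CPM. Basophil or mast-like cells (107 and 124 cells) had a sum of 4593 CPM in Ctrl and 4799 CPM in shPrmt9, a ratio of 1.04 (1.01 to 1.08), with 20 of 31 genes above 1 and 2 called higher, Psmd6 at 50.6 and 79.3 CPM, ratio 1.57, and Psmc1 at 46.7 and 72.1 CPM, ratio 1.55. Of all genes there, 7.35% were called higher and 9.97% lower. Their mature neutrophil markers went from 3184 to 35264 CPM. For these 3 cell types the part of depth and of these lists in the values was not tested.

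In the neutrophil-like cells of marrow the core and cap sums were lower in shPrmt9 on the CPM scale and higher relative to all genes. Immature granule-forming neutrophil-like cells (799 and 1871 cells) had 2809 CPM in Ctrl and 2521 CPM in shPrmt9, a ratio of 0.898 (0.885 to 0.911), with 4 of 31 genes above 1 and 2 called lower beside 18.4% of all genes, and 0 called higher beside 6.14%. The median gene was at a log2 ratio of -0.16, which was 0.09 above the median of all genes. Mature neutrophil-like cells (3012 and 3969 cells) had 2126 CPM in Ctrl and 1937 CPM in shPrmt9, a ratio of 0.911 (0.897 to 0.925), with 5 of 31 genes above 1, 1 called lower beside 18.1% and 1 called higher beside 5.78%. Their median gene was at -0.16 on the log2 scale and 0.12 above all genes. Psmc6 was low in both, at 98.8 CPM in Ctrl and 58.5 CPM in shPrmt9, a ratio of 0.592 (0.546 to 0.643), in immature cells and at 71.6 and 44.4 CPM, ratio 0.619, in mature cells. Psmd14 was low in both as well, with ratios of 0.626 (0.561 to 0.701) and 0.681 (0.583 to 0.795). Psma5 stood against them, at 60.2 CPM in Ctrl and 87.9 CPM in shPrmt9, a ratio of 1.46 (1.33 to 1.60), in immature and 32.3 CPM in Ctrl and 62.0 CPM in shPrmt9, a ratio of 1.92 (1.71 to 2.15), in mature cells. The 8 mature neutrophil markers, led by S100a8 and S100a9, went from 290782 to 347674 CPM in the immature cells, and the proliferation genes there from 715 to 373 CPM; their part in the lower sums was not tested.

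Erythroid-like cells went in opposite directions in the 2 tissues on the CPM scale. In marrow (653 and 1107 cells) the sum was 729 CPM in Ctrl and 1061 CPM in shPrmt9, a ratio of 1.46 (1.40 to 1.52), 28 of 30 genes were above 1 and 12 were called higher, beside 27.7% of all genes, with 0 called lower beside 5.72%. Relative to all genes the median was 0.20 higher on the log2 scale. Psma5 led, at 16.0 CPM in Ctrl and 73.5 CPM in shPrmt9, a ratio of 4.59 (3.55 to 6.03), and Psma7 was at 25.5 CPM in Ctrl and 55.3 CPM in shPrmt9, a ratio of 2.17 (1.75 to 2.72). The alpha ring summed to a ratio of 1.88 (1.74 to 2.03), the beta ring to 1.29 (1.19 to 1.40) and the cap to 1.28 (1.20 to 1.37). In spleen (189 and 1667 cells) the sum was 772 CPM in Ctrl and 608 CPM in shPrmt9, a ratio of 0.787 (0.749 to 0.828), 2 of 31 genes were above 1, and 9 were called lower beside 55.7% of all genes and 1 higher beside 6.74%. The core and cap median lay 0.18 above the median of all genes on the log2 scale, and TMM and median-of-ratios scaling turned the direction. Psma5 was again above 1, at 25.8 CPM in Ctrl and 40.6 CPM in shPrmt9, a ratio of 1.58 (1.21 to 2.09), as was Psma3, at 40.9 and 56.5 CPM, ratio 1.38. Psmb3 of the beta ring was at 36.4 and 20.9 CPM, ratio 0.575, Psmb1 at 51.5 and 31.6 CPM, ratio 0.614, and Psmd1 at 12.4 and 7.54 CPM, ratio 0.606. The cells' own erythroid markers went from 684367 to 615967 CPM in marrow and from 777533 to 831394 CPM in spleen. Proliferation genes went from 2058 to 1738 CPM in marrow and from 83.5 to 47.6 CPM in spleen. Mature neutrophil markers went from 7204 to 18867 CPM in the marrow cells and from 95.1 to 827 CPM in the spleen cells. The part of these lists in the 2 directions was not tested.

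Across the 13 comparisons, Psma5 was the core gene most often called higher. Psma5 was above 1 in 12 and called higher in 4 (mature neutrophil-like, erythroid-like of both tissues and B cell-like of spleen), and the exception was 0.956 in NK cell-like cells. Psmb1 and Psma6, of the same core, had highest ratios of only 1.13 in B cell-like cells of spleen and 1.30 in erythroid-like cells of marrow. Psmb5, the subunit that cuts after hydrophobic residues, was above 1 in 11 of 13, from 0.625 in erythroid-like cells of spleen to 1.67 in those of marrow. Psmb6 was above 1 in 9 of 13 and Psmb7 in 7. In the cap, Psmd6 was called higher in 4 comparisons, and Psmd4, the ubiquitin receptor, lay between 0.880 and 1.31 and was called in none. Psmc6 and Psmd14 divided the cell types. Psmc6 was above 1 in T and B cell-like cells of both tissues and NK cell-like cells of spleen (1.17 to 1.48) and in erythroid-like marrow cells (1.04), and below 1 in all 6 other marrow types and erythroid-like spleen cells. Psmd14 was above 1 in T and B cell-like cells of both tissues and in basophil or mast-like cells (1.04), and below 1 in the other 8 comparisons, the NK cell-like cells among them. These patterns rest on 2 library pairs.

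**Figure D3:**
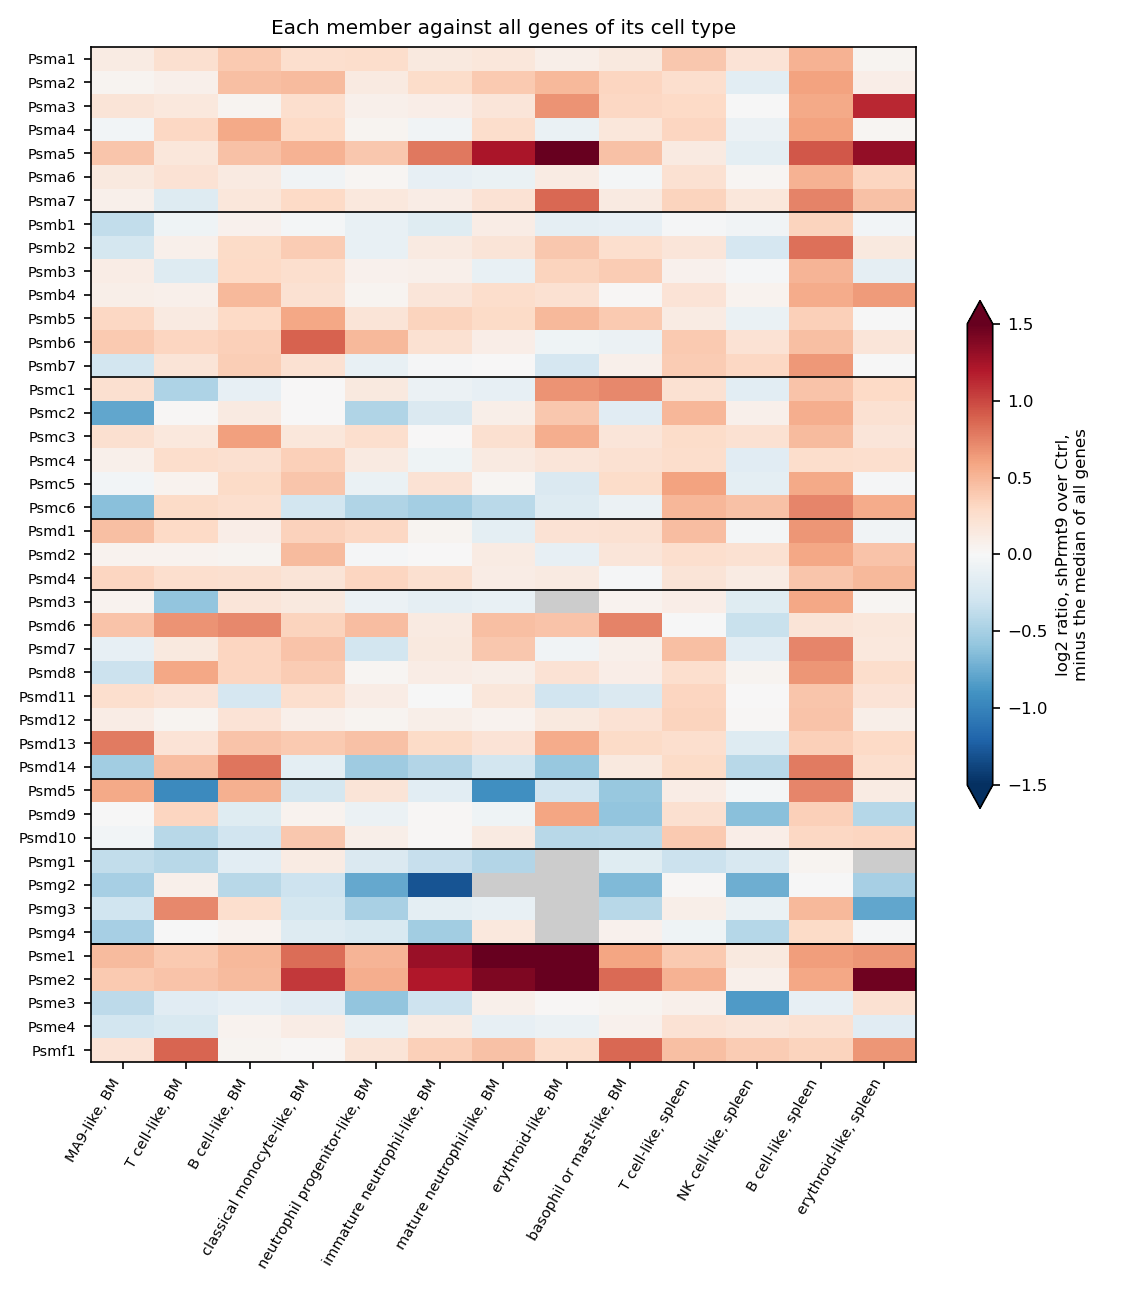
Log2 ratio of shPrmt9 to Ctrl minus the median of all genes of the comparison, for members (rows, ordered by role) in the 13 comparisons (columns). Psma8, Psmb11, Psme2b and Psmc3ip have no row, and members under 50 UMIs are left blank. On this scale the Psme1 and Psme2 rows are above 0 in 13 of 13, Psma5 is above 0 in 12 of 13, and the core chaperone rows are mostly below 0. The core and cap median of the neutrophil-like cells and of erythroid-like spleen cells is above 0 here. On the CPM scale it is below a ratio of 1.

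Psme1 and Psme2, shown apart because interferon raises them, were higher in shPrmt9 in every comparison when summed, 13 of 13, with each counting interval above 1, and TMM and median-of-ratios scaling left all 13 sums above 1. The smallest ratio was 1.15 (1.08 to 1.22) in NK cell-like cells of spleen and the largest 4.78 (4.02 to 5.72) in erythroid-like cells of marrow, whose sums were 35.4 and 169 CPM. In MA9 leukaemia-like cells the sum was 429 CPM in Ctrl and 581 CPM in shPrmt9, a ratio of 1.35 (1.34 to 1.37), with Psme1 at 200.2 and 278 CPM, ratio 1.39, and Psme2 at 229 and 303 CPM, ratio 1.32. The myeloid types lay above the leukaemic cells. Classical monocyte-like cells were at 647 CPM in Ctrl and 1172 CPM in shPrmt9, a ratio of 1.81 (1.75 to 1.88). Immature neutrophil-like cells were at 289.8 CPM in Ctrl and 582 CPM in shPrmt9, a ratio of 2.01 (1.93 to 2.09), and mature ones at 252 CPM in Ctrl and 572 CPM in shPrmt9, a ratio of 2.27 (2.18 to 2.36). The remaining marrow types had sum ratios of 1.34 in T cell-like, 1.38 in B cell-like, 1.40 in neutrophil progenitor-like and 1.52 in basophil or mast-like cells. In spleen the T cell-like sum was 1434 CPM in Ctrl and 1836 CPM in shPrmt9, a ratio of 1.28 (1.26 to 1.30), and the B cell-like sum 1034 CPM in Ctrl and 1407 CPM in shPrmt9, a ratio of 1.36 (1.33 to 1.39). Among the marrow types, the 3 with the lowest Ctrl level of the pair, erythroid, mature and immature neutrophil-like cells, had the 3 highest ratios. In erythroid-like cells of spleen the members parted, with Psme1 at 95.1 and 94.8 CPM, ratio 0.997, and Psme2 at 70.2 and 121 CPM, ratio 1.72. Called past 1.5-fold were Psme1 in 4 and Psme2 in 6 of the 13, both in more comparisons than most core and cap genes. With each cell given equal weight, Psme2 in NK cell-like cells turned to a log2 ratio of -0.02.

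The retrocopy Psme2b, close in sequence to Psme2 and therefore uncertain, passed the 50-UMI filter in 9 comparisons and was above 1 in 8, the highest being 6.14 CPM in Ctrl and 17.4 CPM in shPrmt9, a ratio of 2.83 (2.21 to 3.68), in mature neutrophil-like cells. The 10 interferon-stimulated genes chosen as a companion list were higher in the same 13 comparisons, with sum ratios of 2.32 to 8.29, and in MA9 leukaemia-like cells they went from 226 to 821 CPM. Their part in the Psme1 and Psme2 values was not tested. The inducible catalytic genes Psmb8, Psmb9 and Psmb10, left out of the members, had a sum ratio of 3.81 in mature neutrophil-like and 3.11 in erythroid-like marrow cells, 1.06 in MA9 leukaemia-like cells, 0.822 in T cell-like and, lowest, 0.573 in erythroid-like cells of spleen, and it was above 1 in 10 of 13.

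Promoters are shown for the members whose ratios stood apart, Psme1, Psme2 and Psma5, and for Psmd4 and Psmb5, which hold a searched motif and were not called higher in most types. Psme1 lies at chr14:55578123-55581529, plus strand, and Psme2 lies at chr14:55587441-55591113, minus strand, so the pair are neighbours that point towards each other. Psma5 lies at chr3:108256926-108279974, plus strand. These positions are from GENCODE on GRCm38, and Psme1 overlaps Emc9 and Psma5 overlaps 1700010K24Rik on the opposite strand. Over all members, 16 overlap a gene on the opposite strand and 10 one on the same strand. The sources used here do not say whether counting used strand, and whether reads of such pairs were kept apart was not checked. Each promoter runs from 250 bases before to 50 after the start site (RefSeq, GRCm38.p6). For Psme1 the 2 sources differ, since its GENCODE position begins before the first base of the RefSeq window. Capitals mark a match to the interferon-stimulated response element, searched on both strands as GAAA, 2 bases of any kind and GAAA again, or in Psmb5 to the antioxidant response element, searched as TGACNNNGC. The regions are, for Psme1, chr14:55578244-55578543, plus strand, for Psme2 (the first of 2 entries), chr14:55591052-55591351, minus strand, for Psma5, chr3:108256676-108256975, plus strand, for Psmd4, chr3:95042565-95042864, minus strand, and for Psmb5, chr14:54617946-54618245, minus strand.
Psme1: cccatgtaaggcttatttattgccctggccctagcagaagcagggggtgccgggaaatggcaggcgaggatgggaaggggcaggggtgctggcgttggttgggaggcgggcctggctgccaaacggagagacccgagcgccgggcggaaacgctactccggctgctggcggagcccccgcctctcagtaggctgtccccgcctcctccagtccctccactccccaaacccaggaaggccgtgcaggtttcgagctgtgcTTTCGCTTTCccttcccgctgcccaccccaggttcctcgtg
Psme2: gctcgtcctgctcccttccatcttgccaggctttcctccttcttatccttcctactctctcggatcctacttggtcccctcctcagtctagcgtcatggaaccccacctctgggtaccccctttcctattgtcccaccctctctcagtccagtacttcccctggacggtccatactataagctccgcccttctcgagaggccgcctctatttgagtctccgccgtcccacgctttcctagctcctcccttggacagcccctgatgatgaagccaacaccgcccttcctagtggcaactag
Psma5: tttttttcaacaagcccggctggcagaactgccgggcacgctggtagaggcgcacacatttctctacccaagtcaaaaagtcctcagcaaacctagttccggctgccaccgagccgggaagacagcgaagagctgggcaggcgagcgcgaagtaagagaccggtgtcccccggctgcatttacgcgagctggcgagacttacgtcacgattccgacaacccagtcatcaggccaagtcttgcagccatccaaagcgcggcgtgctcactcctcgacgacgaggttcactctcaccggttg
Psmd4: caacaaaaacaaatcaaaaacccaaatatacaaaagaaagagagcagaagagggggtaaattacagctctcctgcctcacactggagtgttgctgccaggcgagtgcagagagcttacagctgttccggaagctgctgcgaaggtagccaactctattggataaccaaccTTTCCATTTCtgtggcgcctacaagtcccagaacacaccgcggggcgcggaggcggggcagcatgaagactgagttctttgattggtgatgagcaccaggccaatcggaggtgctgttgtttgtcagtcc
Psmb5: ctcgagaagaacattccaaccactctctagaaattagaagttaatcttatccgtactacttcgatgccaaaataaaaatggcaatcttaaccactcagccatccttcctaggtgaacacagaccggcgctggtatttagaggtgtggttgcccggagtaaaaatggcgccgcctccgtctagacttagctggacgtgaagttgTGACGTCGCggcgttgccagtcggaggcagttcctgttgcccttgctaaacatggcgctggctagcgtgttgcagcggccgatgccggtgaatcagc
The Psme1 match begins 9 bases after its RefSeq start site, and the Psmd4 match begins 80 bases before its own. Both matches read in the searched form on the strand opposite to the sequence shown. No match to that element was found in either Psme2 window or in that of Psma5.

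Of the 47 members 39 matched an entry, with 42 promoters. The interferon-stimulated response element was held by 5 of the 42 (11.9%), those of Psmb3, Psmd4, Psmd9, Psme1 and Psmg4, against 3.44% of 32851 mouse promoters of that length, and by 2 of the 27 core and cap promoters. TGACNNNGC was held by 6 (14.3%, against 12.4% of all), those of Psmb5, Psmb6, Psmc6, Psmd12, Psmd9 and Psme4. The CCAAT box was held by 14 (33.3%, against 37.4% of all), 10 of them among the 27 of core and cap. A match is a string in the reference and not a bound site.

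The assembly chaperones of the core were lower in shPrmt9 in more comparisons than the core, whose sum was lower in 3 of 13. Psmg1 to Psmg4 guide the alpha ring together before the beta subunits join. Their summed level was lower in shPrmt9 in 10 of 13 comparisons, with the interval below 1 in 9, and TMM and median-of-ratios scaling left it lower in 10 of 13. In MA9 leukaemia-like cells the sum was 272 CPM in Ctrl and 204 CPM in shPrmt9, a ratio of 0.751 (0.737 to 0.765), and all 4 genes were below 1, from 0.713 for Psmg4 to 0.817 for Psmg3. The immature neutrophil-like cells had 56.9 CPM in Ctrl and 34.3 CPM in shPrmt9, a ratio of 0.603 (0.541 to 0.672), with Psmg2 at 11.8 CPM in Ctrl and 4.07 CPM in shPrmt9, a ratio of 0.346 (0.262 to 0.455). Neutrophil progenitor-like cells had 268 CPM in Ctrl and 200.3 CPM in shPrmt9, a ratio of 0.749 (0.696 to 0.805), and there Psmg2 was at 59.4 and 34.0 CPM, ratio 0.572. Lymphoid types differed less, with sum ratios of 0.904 (0.865 to 0.945) in T cell-like and 1.07 (1.01 to 1.12) in B cell-like cells of spleen, and 1.06 (0.872 to 1.30) and 0.977 (0.801 to 1.18) in those of marrow. NK cell-like cells were at 0.799 (0.694 to 0.921). In T cell-like cells of spleen Psmg1 was lowest, at 24.9 and 18.8 CPM, ratio 0.752, and Psmg4 was at 111 and 99.5 CPM, ratio 0.899. Psmg2 was below 1 in 10 of the 11 comparisons in which it passed and called lower in 5, and Psmg1 was below 1 in 10 of 11 and called lower in 1. Relative to all genes, the core chaperone median was below in 10 of the 12 comparisons with a passing member. In erythroid-like marrow cells, where 0 of the 4 passed the filter, the sum was 6.55 CPM in Ctrl and 11.4 CPM in shPrmt9, a ratio of 1.74 (1.12 to 2.80).

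The chaperones of the cap base, which hold the ATPases until the base is complete, had no common direction, with their sum below 1 in 7 of 13 and, under TMM or median-of-ratios scaling, also in 7, which differ in the erythroid-like cells. Psmd5 was at 44.1 CPM in Ctrl and 65.6 CPM in shPrmt9, a ratio of 1.49 (1.43 to 1.55), in MA9 leukaemia-like cells and 17.3 CPM in Ctrl and 7.52 CPM in shPrmt9, a ratio of 0.434 (0.354 to 0.532), in mature neutrophil-like cells. Psmd9 was below 1 in 9 of 13, from 0.468 in erythroid-like spleen cells to 1.80 in those of marrow, and among those below were basophil or mast-like (110.5 and 69.1 CPM, ratio 0.625) and NK cell-like cells (52.4 and 35.8 CPM, ratio 0.683). Psmd10, which is also known as gankyrin, lay between 0.708 in basophil or mast-like cells and 1.24 in T cell-like cells of spleen, and was called in 0 of 13.

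The other activators and the inhibitor were not like Psme1 and Psme2. Psme3, whose product forms the nuclear activator ring, was below 1 in 12 of 13, with the interval below 1 in 7, but in only 8 of 13 under TMM or median-of-ratios scaling. Psme3 was at 64.2 CPM in Ctrl and 49.2 CPM in shPrmt9, a ratio of 0.766 (0.737 to 0.797), in MA9 leukaemia-like, 59.3 CPM in Ctrl and 38.5 CPM in shPrmt9, a ratio of 0.650 (0.550 to 0.765), in neutrophil progenitor-like and 80.1 CPM in Ctrl and 46.9 CPM in shPrmt9, a ratio of 0.585 (0.449 to 0.761), in NK cell-like cells. In B cell-like cells of spleen, where every core and cap gene was above 1, Psme3 was at 34.2 and 28.0 CPM, ratio 0.820. Psme4, a large single-chain activator, was above 1 in 6 and below in 7, with 4 of the 13 turned by either scaling, from 0.562 in erythroid-like to 1.20 in NK cell-like cells of spleen. Psmf1, whose product inhibits the core in vitro, was above 1 in 11 of 13 and above the median of all genes in 13, and either scaling left it above 1 in 11. Psmf1 was at 22.3 CPM in Ctrl and 41.1 CPM in shPrmt9, a ratio of 1.85 (1.21 to 2.83), in T cell-like marrow cells and 15.6 CPM in Ctrl and 26.6 CPM in shPrmt9, a ratio of 1.71 (1.004 to 3.02), in basophil or mast-like cells, the 2 comparisons in which it was called. In T cell-like cells of spleen it was at 26.9 and 34.7 CPM, ratio 1.29.

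The tissue-restricted members were near the limit of detection. Psmb11, of the thymic proteasome, had at most 6 UMIs in any cell type and library (MA9 leukaemia-like cells of BM-Ctrl) and passed in none of the comparisons. In B cell-like cells of Spleen-Ctrl Psmb11 had 0 UMIs, which allows a level of up to 0.0731 CPM. Psma8, the testis alpha subunit, passed only in neutrophil progenitor-like cells, with 45 UMIs (4.86 CPM) in Ctrl and 5 (0.954 CPM) in shPrmt9, a ratio of 0.196 (0.0608 to 0.493). Psmc3ip, the recombination cofactor taken by name, was lower in the leukaemic and granulocyte types and was called lower in 4 of the 7 comparisons in which it passed. It was at 29.2 CPM in Ctrl and 18.2 CPM in shPrmt9, a ratio of 0.623 (0.586 to 0.663), in MA9 leukaemia-like cells, 29.6 and 12.4 CPM, ratio 0.419, in neutrophil progenitor-like, 5.99 and 1.90 CPM, ratio 0.317, in immature neutrophil-like and 12.2 and 6.66 CPM, ratio 0.545, in classical monocyte-like cells.

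Other genes of the pathway, 29 in all, were read in the same way, beside the shares of all genes given above. In MA9 leukaemia-like cells 1 of 29 was called higher and 3 lower, and in the spleen 2 of 29 were called higher and 0 lower in T cell-like, 7 of 28 higher and 2 lower in NK cell-like and 1 of 29 higher and 2 lower in B cell-like cells. Nfe2l1, the factor that raises proteasome genes when the proteasome is inhibited, was at 71.8 CPM in Ctrl and 31.2 CPM in shPrmt9 in MA9 leukaemia-like cells, a ratio of 0.435, and had ratios of 1.56 and 1.60 in T and NK cell-like cells of spleen. Its protease Ddi2 was at 0.563 and its deglycosylase Ngly1 at 0.735 in the leukaemic cells. Nfe2l2, the oxidative stress factor, went the other way there, with a ratio of 1.49, and was at 1.68 in B cell-like cells of spleen. Pomp, the maturation factor of the core, was above 1 in 12 of 13, from 0.646 in erythroid-like spleen cells to 1.39 in classical monocyte-like cells, unlike the Psmg chaperones. Ubqln1, a shuttle that carries ubiquitin-bound proteins to the proteasome, was at 0.497 in the leukaemic cells.

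Within a cell type, the core and cap level was higher in cells with proliferation transcripts. Cells were thinned to 3000 UMIs each, so that depth was equal, and those with 0 UMIs of the 13 proliferation genes were set beside those with at least 2, leaving out cells with 1. Cells under 3000 UMIs were left out. These were 150 of 653 erythroid-like cells in BM-Ctrl and 330 of 1107 in BM-shPrmt9. In neutrophil progenitor-like cells of BM-shPrmt9 they were 130 of 304. In all 19 cell types and libraries with at least 30 cells on each side the core and cap level was higher in the proliferating cells, with the interval above 1 in 15, a lowest ratio of 1.02, a median of 1.14 and a highest of 2.88. Erythroid-like cells differed most, with 440.4 and 1270.4 CPM, a ratio of 2.88 (2.52 to 3.30) in BM-Ctrl and 706 and 1719 CPM, a ratio of 2.43 (2.23 to 2.66) in BM-shPrmt9. Immature neutrophil-like cells had 2457 and 3642 CPM, a ratio of 1.48 (1.39 to 1.58) in BM-Ctrl, and 2255 and 3189 CPM, a ratio of 1.41 (1.34 to 1.49) in BM-shPrmt9. MA9 leukaemia-like cells had 5883 and 6476 CPM, a ratio of 1.10 (1.07 to 1.13) in BM-Ctrl, but 4535 and 6816 CPM, a ratio of 1.503 (1.45 to 1.56) in BM-shPrmt9. T and B cell-like cells differed little, for example 4148 and 4688 CPM, a ratio of 1.13 (1.09 to 1.18) in T cell-like and 4231 and 4609 CPM, a ratio of 1.09 (1.06 to 1.12) in B cell-like cells of Spleen-Ctrl. Psmd14 was above 1 in 17 of the 19 and the core chaperones in 16, whereas Psme1 and Psme2 were above 1 in only 7, with a median ratio of 0.938. The 8 mature neutrophil markers were mostly lower in the cells with proliferation UMIs, with the interval below 1 in 14 of 19 and a median ratio of 0.685, as were the interferon-stimulated genes, with the interval below 1 in 12 of 19 and a median ratio of 0.833. The part of these lists in the split was not tested.

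**Figure D4:**
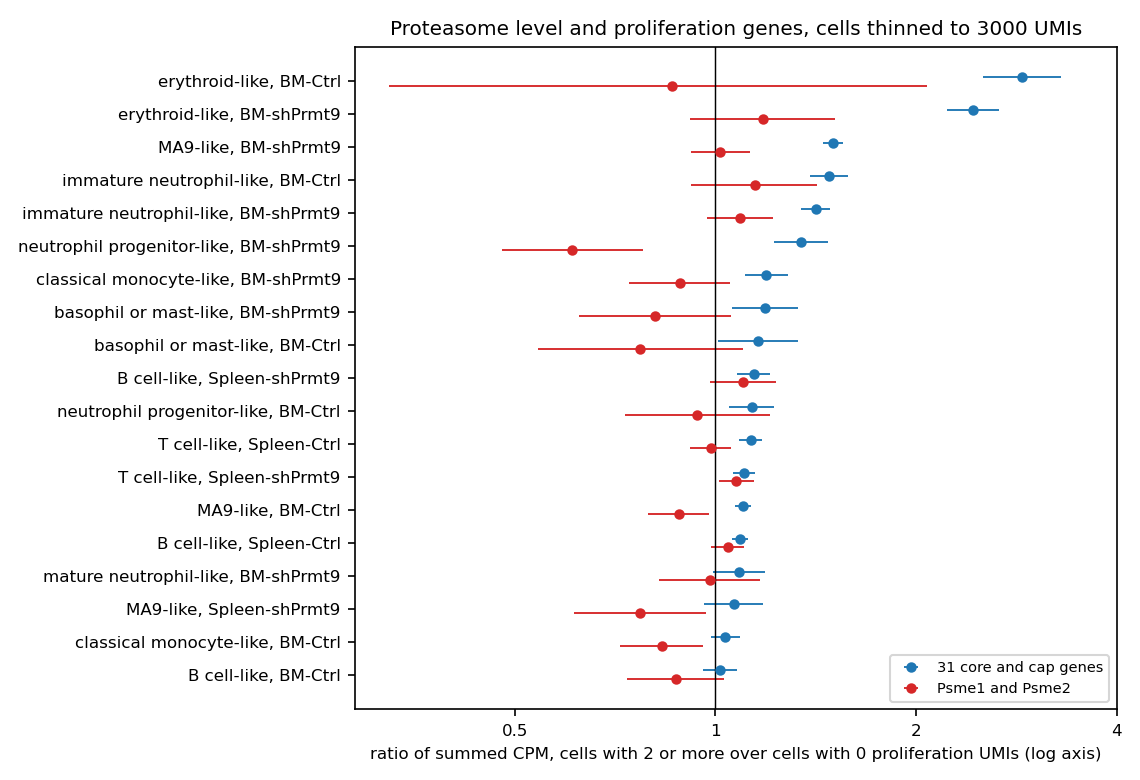
Core and cap level, and Psme1 with Psme2 level, in cells with at least 2 proliferation UMIs relative to cells with 0, in each cell type and library, after thinning to 3000 UMIs per cell (ratio on a log axis, bars for counting error). Cells under 3000 UMIs are left out. The core and cap ratio is above 1 in 19 of 19, and that of Psme1 and Psme2 in 7 of 19.

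The leukaemic comparison split along this line. Among MA9 leukaemia-like marrow cells with 0 proliferation UMIs, the thinned core and cap level was 5883 CPM in Ctrl and 4535 CPM in shPrmt9, a ratio of 0.771 (0.742 to 0.801). Among those with at least 2, it was 6476 CPM in Ctrl and 6816 CPM in shPrmt9, a ratio of 1.05 (1.03 to 1.07). The lower level in shPrmt9 was thus seen in the cells with 0, which were 465 in Ctrl and 280 in shPrmt9, and in which the mature neutrophil markers stood at 11237 CPM in Ctrl and 58411 CPM in shPrmt9. In the cells with at least 2 the same markers were at 5947 and 21598 CPM, and the part of these markers was not tested. The share of thinned leukaemic cells with at least 2 proliferation UMIs was 49.7% in Ctrl and 72.2% in shPrmt9. Psme1 and Psme2 were higher in shPrmt9 on both sides, with ratios of 1.26 in cells with 0 and 1.46 in cells with at least 2. In B cell-like cells of spleen the core and cap ratio was 1.24 in cells with 0 and 1.30 in cells with at least 2, so the difference there was present on both sides of the split.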

How the data were processed

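The authors deposited raw UMI counts per gene and cell from the Chromium 3′ v2 kit, with Cell Ranger 6.0.2 in the file headers and 6.1.1 in the submitters' processing notes, build mm10. Barcodes under 200 detected genes or over 20% mitochondrial UMIs were dropped. A cell was assigned to 1 of 15 types by its mean log2 marker enrichment (pseudocount 0.5, at least 2 markers detected, a score of at least 0.5 and a margin of 0.5 over the next type), with thresholds set after the data were seen. There was 1 exception. A cell with at least 2 MA9 markers and an MA9 score of at least 0.5 could not be assigned to the neutrophil progenitor type. Normal progenitors with these markers can therefore not be told apart from MA9 leukaemia-like cells. Cells with markers of 2 types were removed only by the margin, and no doublet caller was run. The deposited counts were summed per type and library (at least 50 cells in both) and expressed as CPM, with exact Poisson intervals for levels and exact conditional binomial intervals for ratios. Genes with at least 50 UMIs over both libraries were compared, and a ratio of at least 1.5-fold either way was called, so percentages called refer to those genes. There is 1 library per group, so no test was run. The study's own tests take cells as replicates and were not used.

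Individually named were the catalytic subunits, Psmd4, Psmd14, the activators, Psmf1, the chaperones, Psma8, Psmb11 and, per comparison, up to 4 members at each end with at least 100 UMIs and an interval without 1. The exceptions Psmb1, Psma6 and Psmd6 over all comparisons, and the pathway genes, were chosen with their values seen. The members and all lists were chosen with earlier results of these data known. The ratio and its interval were tested on simulated counts. These were drawn with counting error only, as the interval assumes, so they say nothing about spread between cells or mice. 7 alternatives were run. Python 3.11.15 (numpy 2.4.6, scipy 1.17.1, pandas 2.3.3, matplotlib 3.10.9) and R 4.3.3 with edgeR 4.0.16 (TMM factors only) were used. Promoters are from a RefSeq table and gene positions from GENCODE, and 3′ tags were not used to compare levels between genes. Values of some single genes are not reported here.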

Additional observations from a re-analysis of the deposited data

Results flagged for a closer look

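The core and cap genes went in opposite directions in erythroid-like cells of the 2 tissues. The summed ratio of shPrmt9 to Ctrl was 1.46 in marrow and 0.787 in spleen, and this difference was not tested, since each arm is 1 library. By the Y-linked genes the 2 tissues also differ in sex, so tissue and animal cannot be told apart here. Relative to all genes, the median core and cap gene was higher in shPrmt9 in both tissues, by 0.20 on the log2 scale in marrow and 0.18 in spleen, and TMM and median-of-ratios scaling turned the spleen value to 0.32. The numbers of cells differed widely, with 653 and 1107 in marrow and 189 and 1667 in spleen.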

How the results depend on the processing

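Each comparison was repeated under 7 alternatives, and values here are median log2 ratios of the core and cap genes. The filter on low counts changed none of them. Of the other 78 values, 42 moved by more than counting error and 9 changed sign. A change of sign was counted only where the main value exceeded its counting error.

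With TMM scaling the values were 0.076 in MA9 leukaemia-like, 0.22 in B cell-like, 0.22 in classical monocyte-like, 0.012 in neutrophil progenitor-like, 0.10 in immature and 0.13 in mature neutrophil-like (both turned), 0.23 in erythroid-like and 0.20 in basophil or mast-like cells of marrow, and 0.27 in T cell-like, 0.011 in NK cell-like, 0.51 in B cell-like and 0.32 in erythroid-like (turned) cells of spleen. Median-of-ratios scaling gave 0.10, 0.21, 0.10, 0.13, 0.25 and 0.20 in MA9 leukaemia-like, monocyte-like, immature and mature neutrophil-like (both turned), erythroid-like and basophil or mast-like cells of marrow, and 0.30, 0.0079, 0.52 and 0.32 in T cell-like, NK cell-like, B cell-like and erythroid-like (turned) cells of spleen. TMM moved the median of all genes by 0.25 in immature and 0.29 in mature neutrophil-like cells, by -0.23 in erythroid-like marrow cells and by 0.81 in erythroid-like spleen cells. With equal weight for each cell the values were 0.055 in MA9 leukaemia-like, 0.013 in neutrophil progenitor-like and 0.27 in erythroid-like cells of marrow, and 0.20, 0.022, 0.32 and -0.33 in T cell-like, NK cell-like, B cell-like and erythroid-like cells of spleen. The stricter gate gave 0.12, 0.33, 0.19, 0.13 and -0.19 in MA9 leukaemia-like, B cell-like, monocyte-like, neutrophil progenitor-like and immature neutrophil-like cells of marrow, and 0.15 and 0.40 in T and B cell-like cells of spleen. Without the cells of highest UMI count the values were -0.091 in MA9 leukaemia-like (turned), 0.14 in monocyte-like, -0.016 in neutrophil progenitor-like (turned) and 0.15 in basophil or mast-like cells of marrow, and 0.24, 0.35 and -0.12 in T cell-like, B cell-like and erythroid-like cells of spleen. With abundant products left out of the denominator they were 0.11, -0.044, -0.020 and 0.20 in monocyte-like, immature neutrophil-like, mature neutrophil-like and erythroid-like cells of marrow, and 0.15, -0.022 (turned), 0.41 and -0.14 in T cell-like, NK cell-like, B cell-like and erythroid-like cells of spleen. The cause of these changes was not tested, except that a scaling over all genes shifts every gene of a comparison alike.

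Of 182 values for Psme1 and Psme2, 40 moved and 1 was counted as a change of sign under the same rule. It was Psme2 in NK cell-like cells of spleen with equal weight for each cell, at -0.018. Psme1 in erythroid-like spleen cells, at a ratio of 0.997, lay within counting error of no difference. Its turn to above 1 under TMM and median-of-ratios scaling was therefore not counted. No paired analysis was possible because each group is 1 library and no test was run. Differences between the libraries of a condition and differences between mice cannot be told apart, and counting intervals understate the spread that further mice would show.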
